A study of Rattus norvegicus with 6 samples.

Results

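HAVCR1, LCN2, CLU, TIMP1, VIM, CCL2, ICAM1 and VCAM1 are transcripts that kidney studies read as signs of injury or of leukocyte recruitment, and they were followed here in glomeruli of a transgenic rat model. A gene ID of the count table was taken when the authors' comparison tables give it 1 of these 8 human symbols. This paired 7 symbols with 8 of the 26319 rat gene IDs, because HAVCR1 stands beside 2 IDs, and LCN2 was not analysed here. Which of these 2 IDs is the rat counterpart of human HAVCR1 was not settled, so values of either may belong to a related gene. Transgenic Sprague Dawley rats labelled AT1R Tg, AT1R being the receptor through which angiotensin II raises blood pressure, had been given AC1903, an inhibitor of the TRPC5 cation channel, or vehicle, and wild-type rats (WT) had been given vehicle. There were 2 libraries in each of the 3 groups, from an advanced cohort. AC1903 rats were 23.0 and 20.4 weeks old, vehicle-treated AT1R Tg rats 20.4 and 17.4 weeks, and WT rats 20.4 and 21.9 weeks. The labels name neither the promoter of the transgene nor the dose and duration of AC1903, so the cell types that carry the receptor cannot be given here.

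The genes belong to different steps of a damaged kidney's response. HAVCR1 (kidney injury molecule 1) is a phosphatidylserine receptor that injured proximal tubule cells display, CLU (clusterin) is a secreted chaperone, TIMP1 is a secreted inhibitor of matrix metalloproteinases, and VIM (vimentin) is the intermediate filament of mesenchymal cells and of podocytes. CCL2 attracts monocytes through the receptor CCR2. ICAM1 and VCAM1 sit on activated endothelium and epithelium and bind leukocyte integrins, ICAM1 the pair of ITGAL with ITGB2 and VCAM1 the pair of ITGA4 with ITGB1. Transcription of CCL2, ICAM1 and VCAM1 is driven by NF-kB after tumour necrosis factor or interleukin-1.

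Polyadenylated RNA was sequenced to between 12325515 and 36026772 expected counts per library, and both WT libraries were deeper than all 4 AT1R Tg libraries. Levels are counts relative to library depth, rescaled with trimmed means (TMM-normalised CPM), and they compare libraries, not genes, because transcript length was not used. Podocyte markers (NPHS1, SYNPO, WT1, PODXL, PTPRO) summed to between 5787 and 10260 CPM, and no member of that list was at 0 in any library. Proximal tubule markers, which a pure preparation of glomeruli would lack, were present too. Their 5 measured genes summed to 1614 and 1703 CPM in AC1903, to 1535 and 3008 CPM in vehicle and to 1085 and 776 CPM in WT. In such bulk RNA, fewer cells of a type and less RNA per cell cannot be told apart.

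None of the 8 IDs differed between groups at an adjusted p under 0.05 in edgeR's quasi-likelihood test, in any of the 3 comparisons. For vehicle against WT the count was 0 of 8, where 0.0745% of all 13426 tested genes passed. For AC1903 against vehicle it was 0 of 8, where 0% passed, and for AC1903 against WT 0 of 8, where 0.0372% passed. DESeq2 and limma-voom also called 0 of the 8, although DESeq2 called 4.17%, 0.499% and 1.35% of all genes in these comparisons. At an unadjusted p under 0.05 the counts of members were 0, 0 and 1 of 8, beside 1601, 1090 and 1493 of all 13426 genes. The single ID was HAVCR1 ENSRNOG00000007243 in AC1903 against WT. The counts over all genes are also the background for the lists given below.

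For most members the 2 rats of at least 1 of the groups compared were further apart than the group means. On the log2 CPM scale the difference between group means was smaller than the larger of the differences between replicates for 7 of 8 IDs in vehicle against WT, for 8 of 8 in AC1903 against vehicle and for 7 of 8 in AC1903 against WT. The exception was in both cases HAVCR1 ENSRNOG00000007243. On plain CPM the counts were 6, 8 and 7, with HAVCR1 ENSRNOG00000021345 the further exception in vehicle against WT. Shares over all genes were not computed for these counts, so they are not shown to be particular to the members. Vehicle libraries lay wholly above WT for 2 of 8 IDs and wholly below for 0, where 20.6% and 23.4% of all genes did so. AC1903 libraries lay wholly above vehicle for 1 ID and below for 0, where 19.9% and 18.4% of all genes did so. They lay wholly above WT for 1 ID and below for 2, CLU and TIMP1, where 24.2% and 23.5% of all genes did so. For CLU this rests on digits beyond 223.4 CPM, the level of replicate 1 in both groups. With 8 IDs these counts are too small to tell from the shares over all genes.

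**Figure D1:**
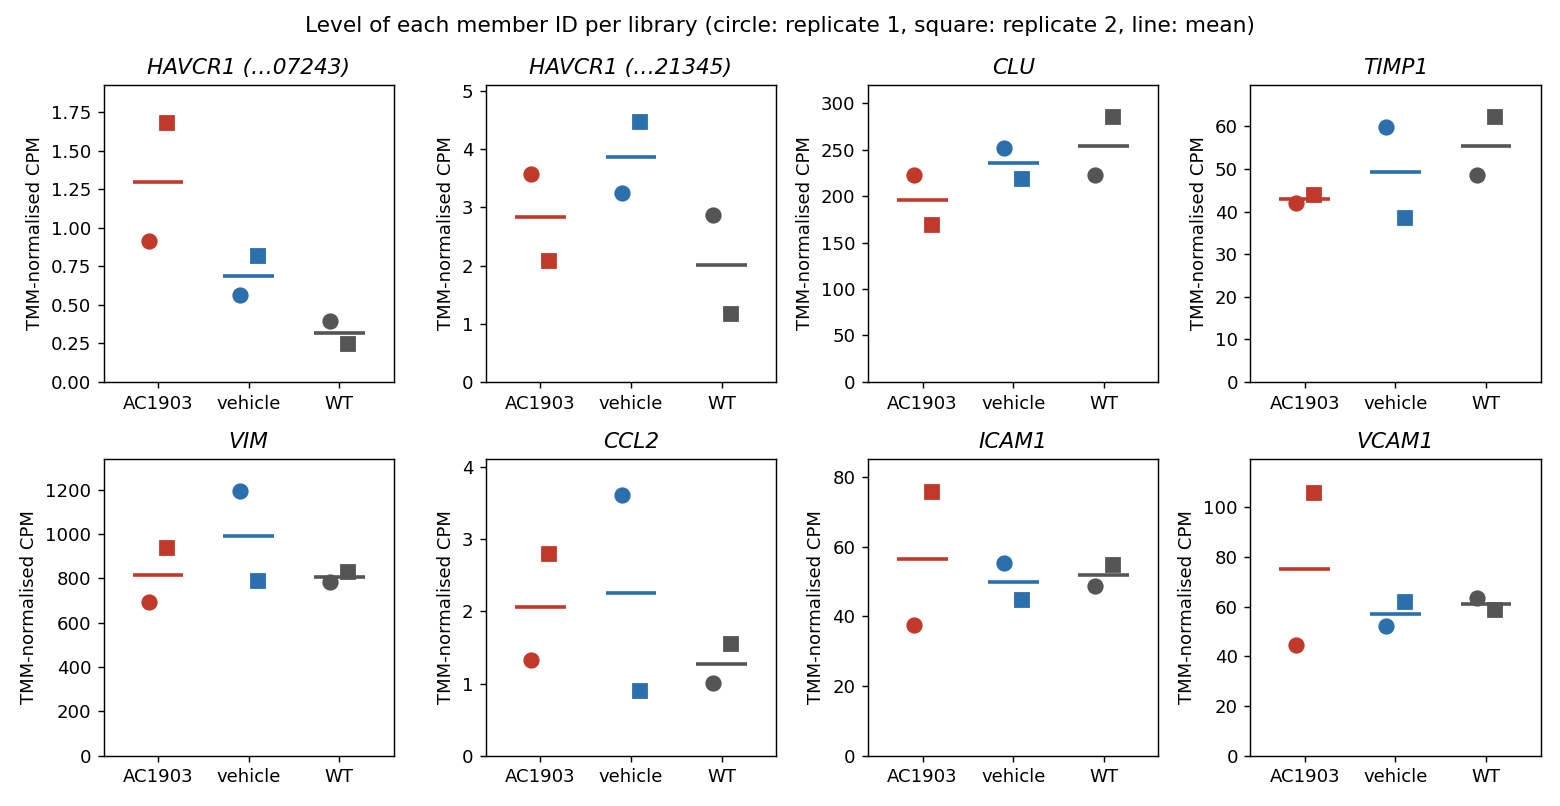
Level of each of the 8 IDs in TMM-normalised CPM (vertical axes start at 0) in AC1903, vehicle and WT glomeruli; circles are replicate 1, squares replicate 2 and lines the mean of 2 libraries. The AC1903 squares for ICAM1 and VCAM1, at 75.6 and 105.7 CPM, stand above every other library, and HAVCR1 ENSRNOG00000007243 is ordered AC1903, vehicle, WT from high to low.

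HAVCR1 ENSRNOG00000007243 was the 1 member whose 3 groups were all apart. It stood at 0.915 and 1.68 CPM in AC1903, at 0.566 and 0.814 CPM in vehicle and at 0.395 and 0.244 CPM in WT. All AC1903 values lay above all vehicle values, and these above all WT values. The share of all genes with 3 groups apart was not computed, so this order is not shown to be unusual. The counts behind them were small, 11 and 21 in AC1903, 8 and 10 in vehicle and 11 and 9 in WT, so that the raw counts of vehicle and WT were alike and the order arose after division by depth. The exact 95% intervals for counting error, as CPM of the library total, were 0.446 to 1.60 and 1.03 to 2.54 in AC1903, 0.257 to 1.17 and 0.337 to 1.29 in vehicle, and 0.219 to 0.786 and 0.114 to 0.474 in WT. Those of the vehicle libraries overlap the intervals of both other groups. The interval of AC1903 replicate 1 also overlaps those of both WT libraries, and only that of AC1903 replicate 2 lies above them.

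Against WT, the AC1903 mean was 4.04-fold higher with a 95% interval of 1.08 to 15.1 (log2 change 2.01, SE 0.83, unadjusted p = 0.0404, adjusted p = 0.437). Without any 1 of the 6 libraries the unadjusted p was 0.0502 or more, and the log2 change lay between 1.5 and 2.37. Against WT, the vehicle mean was 2.15-fold higher with an interval of 0.56 to 8.23 (adjusted p = 0.679). AC1903 against vehicle gave 1.88-fold with an interval of 0.505 to 6.99 (adjusted p = 0.762). Comparisons with the same control group share its libraries, so these 3 values are not independent of each other. Proximal tubule markers were also higher in both AT1R Tg groups than in WT. In each comparison 5 of 5 genes were apart, where 20.6% of all genes were so for vehicle and 24.2% for AC1903. DESeq2 called 5 of them higher in vehicle against WT and SLC13A1 alone in AC1903 against WT, while edgeR and limma-voom called 0. The highest sum of these markers was in vehicle replicate 2. Their part in the HAVCR1 values was not tested.

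The other ID listed as HAVCR1, ENSRNOG00000021345, followed another order. It stood at 3.58 and 2.08 CPM in AC1903, 3.26 and 4.48 CPM in vehicle and 2.87 and 1.17 CPM in WT. Vehicle lay above WT without overlap, while AC1903 overlapped both other groups. The vehicle mean was 1.92-fold that of WT with an interval of 0.776 to 4.76 (log2 change 0.94, SE 0.57, adjusted p = 0.582). Its highest library, vehicle replicate 2, was also the highest for proximal tubule markers at 3008 CPM, and its lowest, WT replicate 2, was the lowest for them at 776 CPM. AC1903 replicate 2 broke that match, with 2.08 CPM of this gene beside a marker sum of 1703 CPM. The part of tubule RNA in these values was not tested. The expected counts of both HAVCR1 IDs were whole numbers in all 6 libraries, and how reads of similar sequence were shared between the IDs is not known.

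CLU (ENSRNOG00000016460) stood at 223 and 169 CPM in AC1903, 252 and 219 CPM in vehicle and 223 and 285 CPM in WT. The lowest value was in AC1903 and the highest in WT, and AC1903 replicate 1 and WT replicate 1 were at the same level to 4 digits. The AC1903 mean was 0.772-fold that of WT with an interval of 0.557 to 1.07 (log2 change -0.37, SE 0.21, adjusted p = 0.520). For vehicle against WT the fold was 0.927 with an interval of 0.67 to 1.28, so an increase above 1.28-fold lies outside it.

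TIMP1 (ENSRNOG00000010208) stood at 42.0 and 43.9 CPM in AC1903, 59.9 and 38.6 CPM in vehicle and 48.6 and 62.2 CPM in WT. The AC1903 libraries were close together and below both WT libraries, and the vehicle libraries spanned nearly the whole range. AC1903 reached 0.775-fold of WT with an interval of 0.539 to 1.12 (log2 change -0.37, SE 0.23, adjusted p = 0.576), and vehicle 0.89-fold of WT with an interval of 0.619 to 1.28 (adjusted p = 0.833). Of the other metalloproteinases and inhibitors, none of 17 tested IDs passed in edgeR in any comparison, with 6 at an unadjusted p under 0.05 in AC1903 against WT. The 2 of smallest p there were the matrix-bound inhibitor TIMP3 and the gelatinase MMP9. TIMP3 stood at 193 and 204 CPM in AC1903 and 130 and 92.3 CPM in WT (log2 change 0.83, SE 0.19, adjusted p = 0.309). MMP9 stood at 80.9 and 85.2 CPM in AC1903 and 130 and 220.0 CPM in WT (log2 change -1.07, SE 0.26, adjusted p = 0.309). DESeq2 called both, TIMP3 higher and MMP9 lower, and limma-voom called 0 of the 17.

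VIM (ENSRNOG00000018087) stood at 692 and 938 CPM in AC1903, 1194 and 791 CPM in vehicle and 786 and 831 CPM in WT. The WT libraries lay close together within the range of AC1903, and the ranges of all groups overlapped. Podocyte markers summed to 6917 and 9244 CPM in AC1903, 10260 and 5787 CPM in vehicle and 10260 and 8458 CPM in WT. Vehicle replicate 1, the library highest for VIM, was thus level with WT replicate 1 for these markers, and vehicle replicate 2 was the lowest for them. The part of the podocyte content in VIM was not tested. Vehicle against WT gave 1.23-fold with an interval of 0.817 to 1.84 (adjusted p = 0.718) and AC1903 against vehicle 0.822-fold with an interval of 0.547 to 1.23 (adjusted p = 0.760).

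Of other intermediate filament genes, none of the 11 tested IDs passed in edgeR, and 5, 2 and 4 had an unadjusted p under 0.05 in vehicle against WT, AC1903 against vehicle and AC1903 against WT. DES, the filament of contractile cells and in rat a known sign of podocyte damage, stood at 88.3 and 74.3 CPM in AC1903, 118 and 111 CPM in vehicle and 168 and 231 CPM in WT. The 3 groups did not overlap. DES is 1 of 4 mesangial markers and is part of their sums. These lay between 508 and 564 CPM in AC1903, 566 and 633 CPM in vehicle and 744 and 828 CPM in WT. The other members of that list, ITGA8, PDGFRB and GATA3, each overlapped between AC1903 and vehicle. The log2 change of DES was -1.30 with SE 0.20 in AC1903 against WT (adjusted p = 0.0960) and -0.80 with SE 0.19 in vehicle against WT (adjusted p = 0.180). KRT8, a simple epithelial keratin, stood at 39.4 and 42.2 CPM in AC1903, 42.0 and 46.4 CPM in vehicle and 23.4 and 29.4 CPM in WT (log2 change of vehicle against WT 0.74, SE 0.18, adjusted p = 0.180). Of genes listed as parietal epithelial markers, 6 were summed. The sums were 352 and 369 CPM in AC1903, 377 and 468 CPM in vehicle and 255 and 253 CPM in WT. CDH16 alone held 218 and 208 CPM in AC1903, 203 and 299 CPM in vehicle and 159 and 144 CPM in WT. In vehicle 4 of 6 lay wholly above WT, where 20.6% of all genes did so. These were CDH16, PAX8, CDH6 and ALDH1A1, while CLDN1 and PAX2 overlapped. Both this list and the proximal tubule markers were highest in vehicle replicate 2. Whether the sums stem from parietal or tubule cells was not tested, nor was their part in the KRT8 values. DESeq2 called DES lower in both comparisons with WT and KRT8 higher in vehicle against WT, and limma-voom called neither.

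The wider list of tubular injury and repair genes had 26 tested IDs, and 0 passed in edgeR in any comparison, with 5, 5 and 7 at an unadjusted p under 0.05 for vehicle against WT, AC1903 against vehicle and AC1903 against WT. DESeq2 called FGA, KL and KRT8 higher in vehicle against WT, B2M and 1 EGF ID in AC1903 against vehicle, and B2M, 1 EGF ID and UMOD in AC1903 against WT, while limma-voom called 0. The median log2 change was 0.06, -0.20 and 0.25, beside medians over all genes of -0.03, -0.02 and 0.0019. In vehicle against WT the genes of smallest p were KRT8 and the kidney hormone co-receptor KL, at 29.2 and 66.1 CPM in vehicle and 21.4 and 8.02 CPM in WT (adjusted p = 0.201). In AC1903 against vehicle they were the 2 IDs listed as EGF, a growth factor of the distal nephron. EGF ENSRNOG00000032707 stood at 84.7 and 81.5 CPM in AC1903 and 40.8 and 53.2 CPM in vehicle. EGF ENSRNOG00000050330 stood at 41.2 and 30.0 CPM in AC1903 and 6.79 and 14.7 CPM in vehicle, and the adjusted p was 0.538 for each. Distal tubule markers summed to 611 and 546 CPM in AC1903 and 398 and 380 CPM in vehicle, and their part in the EGF values was not tested.

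CCL2 (ENSRNOG00000007159) stood at 1.33 and 2.80 CPM in AC1903, 3.61 and 0.895 CPM in vehicle and 1.00 and 1.55 CPM in WT. The vehicle group held both the highest and the lowest library, 4.03-fold apart. Their counts were 51 and 11, and their exact 95% intervals, 2.82 to 4.98 and 0.386 to 1.38 CPM of the library total, do not overlap, so the gap between these rats exceeds counting error. Vehicle against WT gave 1.77-fold with an interval of 0.53 to 5.89 (adjusted p = 0.741), and AC1903 against vehicle 0.912-fold with an interval of 0.269 to 3.09 (adjusted p = 0.969). Changes of several fold in either direction lie inside these intervals. Without vehicle replicate 1 the log2 change of vehicle against WT was -0.51, and without vehicle replicate 2 it was 1.49.

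Among other chemokines and their receptors none of 16 tested IDs passed in edgeR, with 1, 4 and 5 at an unadjusted p under 0.05 in vehicle against WT, AC1903 against vehicle and AC1903 against WT. DESeq2 and limma-voom also called 0. CXCL12, a chemokine of stromal cells and podocytes, stood at 302 and 149 CPM in vehicle and 106 and 133 CPM in WT (adjusted p = 0.260). CXCL13, which attracts B cells, stood at 5.57 and 8.55 CPM in AC1903 and 13.5 and 13.3 CPM in vehicle (log2 change -0.92, SE 0.33, adjusted p = 0.588). CCR1, a receptor of monocytes and neutrophils, stood at 2.66 and 11.7 CPM in AC1903, 2.27 and 2.20 CPM in vehicle and 1.36 and 1.65 CPM in WT (adjusted p = 0.604 against vehicle and 0.354 against WT). CCR1 was highest in AC1903 replicate 2, the library with the highest sum of macrophage markers.

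ICAM1 (ENSRNOG00000020679) and VCAM1 (ENSRNOG00000014333) had a root mean square (RMS) difference of 0.203 in centred log2 CPM across the libraries. Their likeness lay in the AC1903 libraries, while the replicates of vehicle and of WT were ordered in opposite ways for ICAM1 and VCAM1. ICAM1 stood at 37.5 and 75.6 CPM in AC1903, 55.2 and 44.8 CPM in vehicle and 48.8 and 54.8 CPM in WT. VCAM1 stood at 44.5 and 105.7 CPM in AC1903, 52.4 and 62.0 CPM in vehicle and 63.7 and 58.9 CPM in WT. For both genes AC1903 held the lowest library, replicate 1, and the highest, replicate 2, with 2.02-fold between them for ICAM1 and 2.37-fold for VCAM1. Vehicle and WT libraries lay inside that span, and their replicates were within 1.23-fold of each other for both genes.

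AC1903 against vehicle gave 1.13-fold for ICAM1 with an interval of 0.707 to 1.81 (log2 change 0.18, SE 0.30, adjusted p = 0.884), and 1.31-fold for VCAM1 with an interval of 0.767 to 2.25 (log2 change 0.39, SE 0.34, adjusted p = 0.745). Without AC1903 replicate 2 the log2 changes were -0.45 and -0.40, and without AC1903 replicate 1 they were 0.56 and 0.85, so the sign of the comparison turned with the rat left out. Vehicle against WT gave 0.965-fold for ICAM1 with an interval of 0.605 to 1.54 (adjusted p = 0.965) and 0.933-fold for VCAM1 with an interval of 0.547 to 1.59 (adjusted p = 0.943). Increases above 1.54-fold for ICAM1 and 1.59-fold for VCAM1 in vehicle-treated AT1R Tg glomeruli lie outside these intervals.

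The upstream sequences of this pair are shown because the genes ran alike in the AC1903 libraries and both are known targets of NF-kB. Each covers 250 bases before to 50 after the RefSeq start in build GRCr8, written 5′ to 3′ along the gene's strand. Icam1 lies at chr8:27829595-27829894 on the plus strand and Vcam1 at chr2:206742734-206743033 on the minus strand. Capitals mark matches on either strand to GGNNNTTCC, a loose form of the NF-kB site that was written down with these sequences in view.
Icam1: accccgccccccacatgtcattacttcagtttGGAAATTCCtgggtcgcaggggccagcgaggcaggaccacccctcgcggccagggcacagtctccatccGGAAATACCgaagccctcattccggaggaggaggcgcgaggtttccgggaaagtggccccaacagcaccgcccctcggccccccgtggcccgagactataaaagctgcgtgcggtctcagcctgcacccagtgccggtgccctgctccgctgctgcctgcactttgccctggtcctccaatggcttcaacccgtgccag
Vcam1: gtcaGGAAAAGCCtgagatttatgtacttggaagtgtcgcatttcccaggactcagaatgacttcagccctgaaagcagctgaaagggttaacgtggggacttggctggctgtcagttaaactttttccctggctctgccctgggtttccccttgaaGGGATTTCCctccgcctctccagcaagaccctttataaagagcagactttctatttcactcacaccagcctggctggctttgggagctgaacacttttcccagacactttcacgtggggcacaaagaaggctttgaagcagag

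In Icam1 the matches begin 218 and 149 bases before the start, and in Vcam1 246 and 93 bases before it. The same letters occur in 18.3% of the 33469 promoters of this length in the RefSeq table. TATAAA is present in both, beginning 53 bases before the start in Icam1 and 60 in Vcam1, as in 14.2% of all promoters. The table held promoters for 6 of the 8 symbols, and GGNNNTTCC occurs in 3 of these 6, the third being Lcn2. A match to these letters is a description of the sequence and not evidence of binding.

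Among other genes of leukocyte adhesion, the integrin subunits ITGA4 and ITGB2 were also highest in AC1903 replicate 2. Of 21 tested IDs, 17 had a positive log2 change in AC1903 against vehicle, with a median of 0.58 beside -0.02 over all genes, and AC1903 lay wholly above vehicle for 9, where 19.9% of all genes did so. None passed in edgeR or limma-voom, 8 had an unadjusted p under 0.05, and DESeq2 called ITGA4, ITGAL and ITGB2 higher. ITGA4, a subunit of the VCAM1 receptor, stood at 8.57 and 17.7 CPM in AC1903, 2.27 and 2.28 CPM in vehicle and 4.99 and 4.99 CPM in WT. Against vehicle it differed by 2.53 on the log2 scale (SE 0.41, adjusted p = 0.446). ITGB2, a subunit of the ICAM1 receptor, stood at 30.0 and 67.5 CPM in AC1903, 11.6 and 11.6 CPM in vehicle and 14.2 and 15.3 CPM in WT. The difference from vehicle was 2.07 on that scale (SE 0.35, adjusted p = 0.446). Both receptor genes were higher in each AC1903 library than in all others, and ICAM1 and VCAM1 only in AC1903 replicate 2. ITGA4 and ITGB2 were named for the smallest p of this list in AC1903 against vehicle, so their height over vehicle follows from that choice. No contrast of receptors with ligands is drawn from these values. Macrophage markers summed to 78.8 and 152 CPM in AC1903, 42.5 and 58.9 CPM in vehicle and 49.5 and 81.3 CPM in WT. Lymphocyte markers, 3 genes, summed to 14.0 and 23.3 CPM in AC1903, 4.74 and 7.08 CPM in vehicle and 7.86 and 10.2 CPM in WT, with CD79A at 0 in vehicle replicate 1. Neutrophil markers, 3 genes, summed to 5.74 and 10.1 CPM in AC1903, 1.70 and 1.71 CPM in vehicle and 4.70 and 6.61 CPM in WT. The part of leukocyte content in these values was not tested.

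In vehicle against WT the same list ran the other way. Of its 21 IDs, 18 were negative with a median of -0.37 beside -0.03 over all genes, and vehicle lay wholly below WT for 12, where 23.4% of all genes did so. None passed in edgeR or limma-voom, 3 had an unadjusted p under 0.05 and DESeq2 called AOC3 alone, which was higher. AOC3, vascular adhesion protein 1, stood at 189 and 261 CPM in vehicle and 138 and 103 CPM in WT (log2 change 0.90, SE 0.22, adjusted p = 0.180). For ITGA4 the value was -1.13 on the log2 scale (SE 0.40, adjusted p = 0.294). Endothelial markers, 6 genes, summed to between 3398 and 3959 CPM in vehicle and 4673 and 4951 CPM in WT, and their part in the adhesion genes was not tested. Both comparisons share the vehicle libraries.

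**Figure D2:**
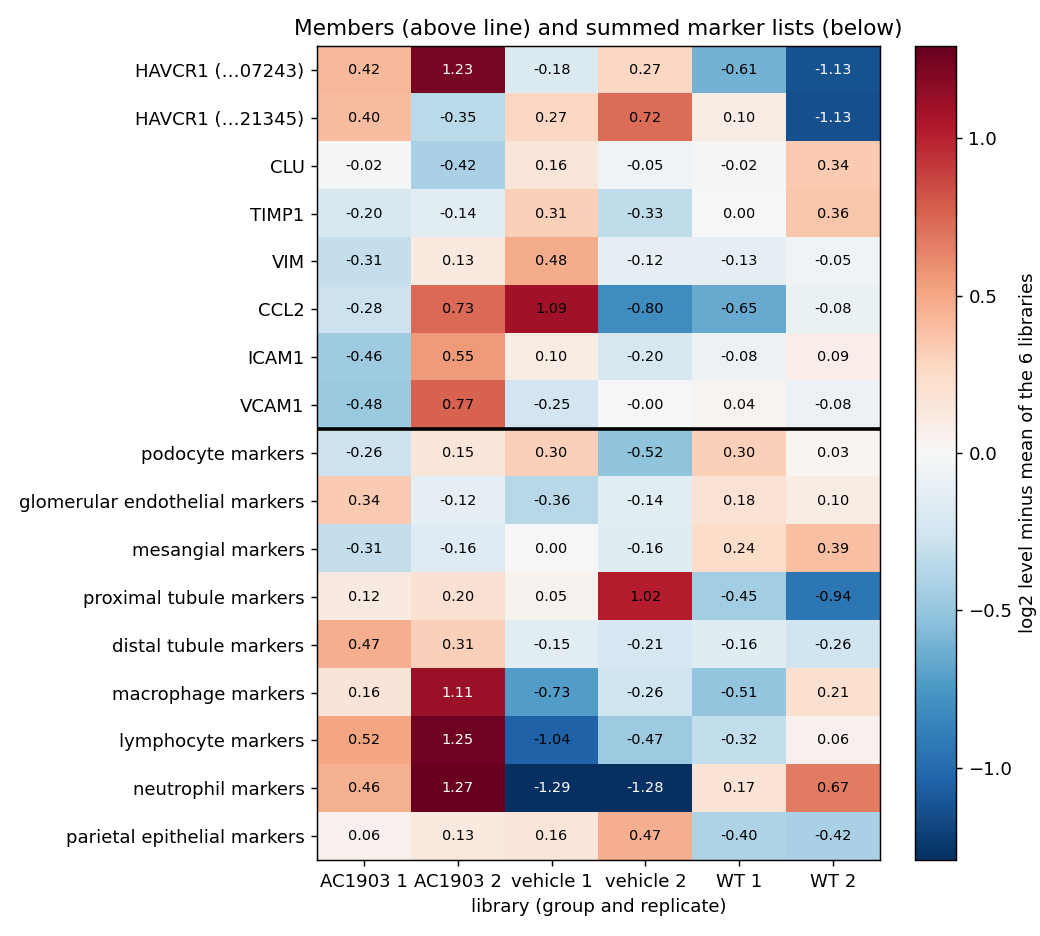
Log2 level of each member ID (above the line) and of the summed CPM of each marker list (below) minus its mean over the 6 libraries, with columns for the libraries of AC1903, vehicle and WT. AC1903 replicate 2 is the library with high ICAM1 (0.55) and VCAM1 (0.77) and also with high macrophage (1.11), lymphocyte (1.25) and neutrophil (1.27) markers, and proximal tubule markers reach 1.02 in vehicle replicate 2.

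Genes of the NF-kB pathway, which acts upstream of CCL2, ICAM1 and VCAM1, were mostly lower in vehicle than in WT by small amounts. Of 29 tested IDs 21 had a negative log2 change, the median was -0.22 beside -0.03 over all genes, and vehicle lay wholly below WT for 15 and wholly above for 0, where 23.4% and 20.6% of all genes did so. Leukocyte markers mostly ran the same way, with 5 of 5 macrophage, 3 of 3 neutrophil and 2 of 3 lymphocyte markers negative, and CD8A positive. Vehicle lay wholly below WT for 1, 3 and 2 of them. The neutrophil markers summed to only 1.70 and 1.71 CPM in vehicle. The part of leukocyte content in the NF-kB pathway values was not tested. None of the 29 IDs passed in edgeR, DESeq2 or limma-voom, and 1 had an unadjusted p under 0.05. That gene was NFKBIA, the feedback inhibitor that NF-kB induces, at 142 and 141 CPM in vehicle and 168 and 256 CPM in WT (log2 change -0.58, SE 0.24, adjusted p = 0.367). IL1B, which encodes interleukin-1 beta, stood at 5.07 and 13.8 CPM in AC1903, 0.354 and 2.04 CPM in vehicle and 2.98 and 4.72 CPM in WT. Its log2 change was 3.01 with SE 0.77 in AC1903 against vehicle (adjusted p = 0.538, called by DESeq2) and -1.71 with SE 0.76 in vehicle against WT (adjusted p = 0.424). TNFRSF1B, a receptor of tumour necrosis factor on leukocytes, stood at 13.6 and 39.1 CPM in AC1903 and 7.64 and 11.1 CPM in vehicle (adjusted p = 0.549). In AC1903 against vehicle the list had 20 positive IDs, a median of 0.09, 10 wholly above vehicle where 19.9% of all genes were, 0 called in edgeR and 4 at an unadjusted p under 0.05.

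Proteins that bind or take up the injury proteins were measured for 7 IDs, of which none passed in edgeR or limma-voom and 2, 0 and 1 had an unadjusted p under 0.05 in the 3 comparisons. CUBN, the endocytic receptor cubilin of proximal tubule, stood at 124 and 162 CPM in AC1903, 119 and 261 CPM in vehicle and 86.5 and 43.6 CPM in WT. It is also in the proximal tubule list, and its log2 change was 1.55 with SE 0.41 in vehicle against WT (adjusted p = 0.191), a comparison in which DESeq2 called it.

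**Figure D3:**
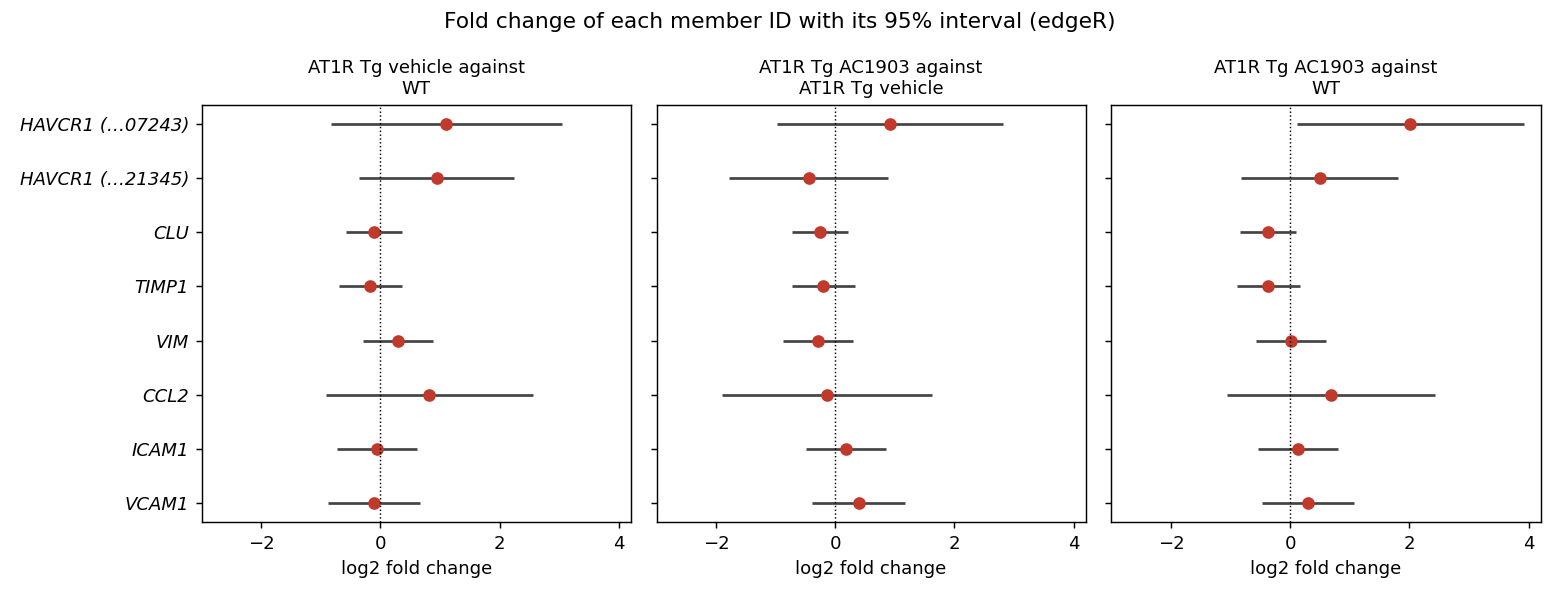
Log2 fold change of each member ID with its 95% interval from edgeR for vehicle against WT, AC1903 against vehicle and AC1903 against WT, with the dotted line at no difference. The 1 interval that leaves out 0 is that of HAVCR1 ENSRNOG00000007243 in AC1903 against WT, from 0.11 to 3.92, before adjustment over all genes, and the widest intervals are those of the HAVCR1 IDs and CCL2.

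The intervals set what the data could show. For CLU, TIMP1, VIM, ICAM1 and VCAM1 the SE of the log2 change lay between 0.20 and 0.34 in all 3 comparisons, and for CCL2 and the HAVCR1 IDs between 0.57 and 0.85. The members' median log2 change was 0.12 in vehicle against WT, -0.17 in AC1903 against vehicle and 0.21 in AC1903 against WT. Their median size without sign was 0.23, 0.27 and 0.37, beside 0.24, 0.24 and 0.26 over all genes. In the authors' deposited table of vehicle against WT the smallest adjusted p among these IDs was 0.598, for HAVCR1 ENSRNOG00000021345 at a log2 fold change of 0.97. In the authors' deposited table of AC1903 against vehicle the adjusted p was 0.997 for all 8.

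The profile of each member over the 6 libraries was compared with other tested genes by the RMS difference of log2 CPM after centring. From ICAM1, VCAM1 was at an RMS difference of 0.203, place 136 of 9739 genes, and VIM at 0.249, place 525. From CCL2, VIM was at place 184, ICAM1 at place 388 and TIMP1 at place 1061 of 9740 genes. CLU and TIMP1 were at 0.189 from each other, place 1235 from CLU. The HAVCR1 IDs were 0.753 apart. The genes nearest to VCAM1 were SPATA5L1 at 0.058, the interferon-induced ubiquitin ligase TRIM21 at 0.117 and MTIF3 at 0.130, where the median over all genes was 0.449. Nearest to ICAM1 were PRR14, SRD5A3 and RBKS, at 0.0759 to 0.0928. HAVCR1 ENSRNOG00000007243 was nearest to TRIB1 at 0.196, SYNE2 at 0.269 and SLC51A at 0.282. HAVCR1 ENSRNOG00000021345 was nearest to SLC16A10, an amino acid transporter, at 0.169. Nearest to CCL2 was the transcription factor FOXC1 at 0.236. CLU lay nearest to PARL at 0.023, TIMP1 to RASGRP2 at 0.0437 and VIM to MGST1 at 0.0569.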

How the data were processed

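Glomerular RNA of 6 libraries was prepared with a stranded mRNA kit, per the labels' protocols. Expected counts per Ensembl gene, not normalised, were deposited by the authors. STAR 2.5.2b, RSEM 1.3.0 and the build Rnor_5.0 are named in the submitters' processing notes; no annotation release is named there. Gene symbols came from 2 comparison tables that the authors deposited, which hold log2 fold changes and p-values per the file headers.

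Expected counts were rounded, filtered with filterByExpr (13426 genes kept, all 8 members among them), scaled by TMM and tested with edgeR 4.0.16 (R 4.3.3; quasi-likelihood, two-sided, all 6 libraries, 3 residual degrees of freedom, Benjamini-Hochberg over all genes, threshold 0.05). SEs are the size of the log2 change over the square root of F. The common biological coefficient of variation was 23.0%. With 2 against 2 no exact permutation p can go below 0.333. The edgeR p-values set each difference against a spread between these rats that is partly shared across genes (5.37 prior degrees of freedom). Log2 CPM used a prior count of 2. A count of 0 would allow 0.0833 to 0.243 CPM; floors and intervals of counts cover counting error only. The main edgeR fit, DESeq2 and limma-voom were tested on simulated data, for vehicle against WT only. The genes changed there had higher levels than CCL2 and the HAVCR1 IDs, and the other fits were not tested in this way.

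The members and lists were chosen with earlier results of these data known. All members were named; from each list the 2 IDs of smallest p per comparison could be named, part of which are given, and likeness used genes with a symbol and a mean of at least 5 CPM. Alternatives were DESeq2 1.42.0, limma-voom (limma 3.58.1), DESeq2 size factors, no filter, only the groups compared, a replicate block, age as a covariate and leaving out each library. A marker of the podocyte list is not reported here and was left out of its sums.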

Additional observations from a re-analysis of the deposited data

How the results depend on the processing

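No alternative called any of the 8 IDs in any comparison: over 312 values of members the lowest adjusted p was 0.314, and 287 kept their direction. Counts over all genes moved more. For vehicle against WT, 10 genes passed in edgeR, 560 in DESeq2, 774 with no filter on low counts, and 4 each from only the 2 groups compared, with the replicate block and with age as a covariate; leaving out each library gave 1 (without WT replicate 1) to 530 (without vehicle replicate 1). For AC1903 against vehicle, 0 passed in edgeR, with 1090 at an unadjusted p under 0.05, 67 in DESeq2, 0 in limma-voom, 114 with no filter, 2 with the replicate block, 1 with age as a covariate and 0 to 4 without each library. For AC1903 against WT, 5 passed in edgeR, 181 in DESeq2, 464 with no filter, 21 from only the 2 groups compared and 1 to 25 without each library. The cause of these moves was not tested. Same-numbered libraries deviated from their group means with correlations across genes of -0.0409 to 0.00458, so the labels' numbers are not treated as pairs.

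The direction of 25 values of members turned, all at an adjusted p of 0.645 or above. With age as a covariate, vehicle against WT gave log2 changes of 0.17 for CLU and 0.099 for TIMP1. CCL2 in AC1903 against vehicle was 0.041 in limma-voom. VIM in AC1903 against WT was -0.003 in limma-voom, -0.0072 with no filter and -0.0012 with age as a covariate. Leaving out each library in turn gave, for vehicle against WT, -0.51 to 1.49 for CCL2, -0.28 to 0.074 for CLU, -0.21 to 0.093 for ICAM1, -0.52 to 0.12 for TIMP1, -0.22 to 0.016 for VCAM1 and -0.033 to 0.56 for VIM. For AC1903 against vehicle it gave -0.81 to 1.20 for CCL2, -0.45 to 0.56 for ICAM1, -0.49 to 0.15 for TIMP1, -0.40 to 0.85 for VCAM1 and -0.56 to 0.041 for VIM. For AC1903 against WT it gave -0.026 to 1.27 for HAVCR1 ENSRNOG00000021345, -0.47 to 0.53 for ICAM1, -0.47 to 0.78 for VCAM1 and -0.23 to 0.20 for VIM. HAVCR1 ENSRNOG00000007243 kept its direction in all 3 comparisons under every alternative run. Its low counts and 2 rats a group limit what could be detected.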
